A study of Mus musculus with 20 samples.

Results

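The transcripts described here encode the subunits of Polycomb repressive complex 2 (PRC2), 10 genes taken by name from the 23284 genes of each table: the core subunits Eed, Ezh2, Ezh1, Suz12, Rbbp4 and Rbbp7, and the accessory subunits Jarid2, Mtf2, Phf19 and Aebp2. All 10 were found in all 20 libraries and all 10 passed the filter on low counts. The libraries come from RNA immunoprecipitation (RIP) in mouse embryonic stem cells (ESCs), which asks which RNAs are recovered with Tet1, with Tet2, and with a Tet2 that lacks its RNA-binding domain. Each immunoprecipitated (IP) library has an input library of total RNA with the same number.

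Tet1-KI cells (2 IP and input pairs) carry a Flag, HA and Twin-Strep tag at the C terminus of the endogenous Tet1 protein, introduced with CRISPR. Tet2-KI cells (4 pairs) carry the same tag on Tet2, and Tet2ΔRBD-KI cells (4 pairs) carry it on a Tet2 without the RNA-binding domain (RBD). All lines derive from picked clones of ESCs grown on gelatin with serum and leukemia inhibitory factor, and all received the anti-Flag antibody. No library from untagged cells or from a control antibody was used here. The IP started from a cytoplasmic extract and the input was total RNA, so recovery by the tagged protein and a larger cytoplasmic share of a transcript cannot be told apart in any ratio below. The labels do not say which replicates came from separate cultures, so the p-values measure the spread between these libraries.

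PRC2 trimethylates lysine 27 of histone H3 and thereby keeps developmental genes silent in ESCs. EZH2 or its paralog EZH1 holds the methyltransferase site, EED reads the mark and switches the enzyme on, SUZ12 holds the complex together, and RBBP4 or RBBP7 binds histones. Accessory subunits bring the core to chromatin: MTF2 and PHF19 belong to one form of the complex, and JARID2 and AEBP2 to another. TET proteins oxidize 5-methylcytosine in DNA and RNA.

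Library totals ran from 21078995 to 37576638 expected counts (median 25517290), and the lowest count behind a value of these genes was 244 (Phf19). By the numbering of the deposited files, replicate 1 of Tet2 and Tet2ΔRBD belongs to one library set, replicate 2 of both to another, and replicates 3 and 4 of both together with Tet1 to a shared set. Replicates 3 and 4 of a Tet2 line were much more alike (chi-square per gene between their counts of 2.69 to 16.1) than other replicates of these lines (132 to 527), and those of Tet1 had 7.5 and 7.62. All 7 ESC markers stood at or above 5 TPM (transcript copies normalized for length and library total) in every input. Of 6 fibroblast genes, Col3a1, Dcn and Lum stood below 1 in every input, whereas Thy1 ranged from 8.43 to 35.8 TPM, Col1a1 from 1.2 to 17.8 and Col1a2 from 0.78 to 9.24, and the summed level of the 6 was 14.1 to 16.1 in Tet1, 14.7 to 42.4 in Tet2 and 10.7 to 63.2 in Tet2ΔRBD. The summed level of 4 neuroectoderm genes was 11.4 in both Tet1 inputs, 7.73 to 20.8 in Tet2 and 12.5 to 16.8 in Tet2ΔRBD. The summed TPM of 5 endoderm genes in the inputs was 40.1 to 41.8 in Tet1, 8.75 to 113 in Tet2 and 52.8 to 144 in Tet2ΔRBD. The part of these genes in the results was not tested.

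Because cytosine is the base that TET proteins act on, the longest unbroken run of C and U in each transcript is given first, in capitals, with its position on mm9 (GENCODE vM1 models, transcript 001 of each gene). For the runs of Suz12, Rbbp4 and Jarid2 the first 28 bases are shown.
Eed, 5′ UTR, chr7:97129215-97129232, minus strand: cgcgCCCCUUUUUCagca
Ezh2, 3′ UTR, chr6:47480509-47480534, minus strand: acuaCCUCUUCCCCUUCUCUCUgaaa
Suz12, 5′ UTR, chr11:79806637-79806664, plus strand: CUUUUUUUUUUUCCUCCCUCCUUCCCUC
Rbbp4, 3′ UTR, chr4:128987062-128987089, minus strand: UUUUUCCUUCCUUCCUUUCUUUUUCUUU
Jarid2, 5′ UTR, chr13:44826906-44826933, plus strand: UUUUUUUUUUUUUCUUCUUUUUUUUUCU
Aebp2, 3′ UTR, chr6:140599397-140599422, plus strand: ucaaCCCCUUCCUUCCUCCUUUacuu

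The run was 82 bases long in Suz12, 56 in Rbbp4, 39 in Jarid2, 18 in Ezh2 and in Aebp2, 12 in Ezh1 and in Rbbp7, 11 in Mtf2 and 10 in Eed and in Phf19. The median was 13 over the 5579 expressed genes that had such a transcript, and 0.4% of those held a run as long as that of Suz12, 0.9% as long as that of Rbbp4 and 2.1% as long as that of Jarid2. The run of Eed was among the shorter ones, with 90.8% of expressed genes at or above it. Across those genes, the log2 run length and the mean log2 ratio of IP to input correlated at r = -0.07 in Tet1, 0.05 in Tet2 and 0.03 in Tet2ΔRBD, and across the 10 members at -0.02, -0.17 and -0.15, a description in which all points share the same libraries.

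The transcripts were otherwise long and poor in G and C. Their median length was 4134 bases against 2593 for expressed genes, and their median GC content was 44.8% against 51.9%. Across the 5579 expressed genes, log2 length and the mean log2 ratio correlated at r = 0.15 in Tet1, 0.4 in Tet2 and 0.33 in Tet2ΔRBD. Across the 10 members r was -0.34, -0.41 and -0.36. The shares and percentiles of genes given below are not matched for length. Mtf2 had the lowest GC content (38.2%) and Phf19 the highest (53.9%). Rbbp4 (chr4:128984344-129012614, minus strand, 12 exons) had 2992 bases of 3′ UTR, while its paralog Rbbp7 (chrX:159198334-159217024, plus strand, 12 exons) had 676. In the annotation, 7 members overlap another gene (among them Rbbp4 with Sync and Rbbp7 with Txlng), and whether the counting used strand is not given in the sources used here.

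The paralogs could be told apart by sequence. Rbbp4 and Rbbp7 coding sequences were 78.4% identical, and their longest shared stretch, shown because it bounds how far reads could be confused, had 20 bases, both in coding sequence (chr4:129000041-129000060, minus strand, and chrX:159207749-159207768, plus strand).
Rbbp4 and Rbbp7, shared: aaccaugaaggagaagugaa
Ezh1 and Ezh2 were 70.1% identical with a longest shared stretch of 17 bases, and Mtf2 and Phf19 61.2% with 14. None of these pairs shared a word of 50 bases. How far reads of the paralogs could be confused was not tested.

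The inputs held the 10 transcripts at very unequal levels. On the TPM scale, which is per length, the histone-binding subunits Rbbp4 (200 ± 39.3, SD, n = 10 inputs) and Rbbp7 (184 ± 49.9) stood highest, followed by Jarid2 (105 ± 31.1) and Eed (79.0 ± 33.5). Ezh2 (35.0 ± 12.2), Mtf2 (23.4 ± 10.1), Suz12 (21.6 ± 5.22) and Aebp2 (17.4 ± 4.93) lay in the middle. Ezh1 (9.07 ± 5.57) and Phf19 (5.36 ± 1.5) were lowest.
Most of this order was kept library by library. Jarid2 was above Eed, Eed above Ezh2 and Ezh2 above Mtf2 in 10 of 10 inputs, whereas Rbbp4 exceeded Rbbp7 in 4 of 10 and Mtf2 exceeded Suz12 in 6 of 10, so those neighbours did not differ consistently. Ezh2 exceeded its paralog Ezh1 by a median of 5.78 times in the inputs (range 1.74 to 9.30). The gap was narrow in replicates 1 and 2 of Tet2 (1.74 and 2.48 times) and of Tet2ΔRBD (1.98 and 1.78) and at least 5.09 times in the other inputs. In replicate 1 the Ezh1 level was 19.2 TPM in Tet2 and 19.3 in Tet2ΔRBD, against 4.60 to 9.09 in the other inputs, and in Tet2ΔRBD replicate 2 the Ezh2 level was the lowest of all inputs, at 11.5 TPM.

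**Figure D1:**
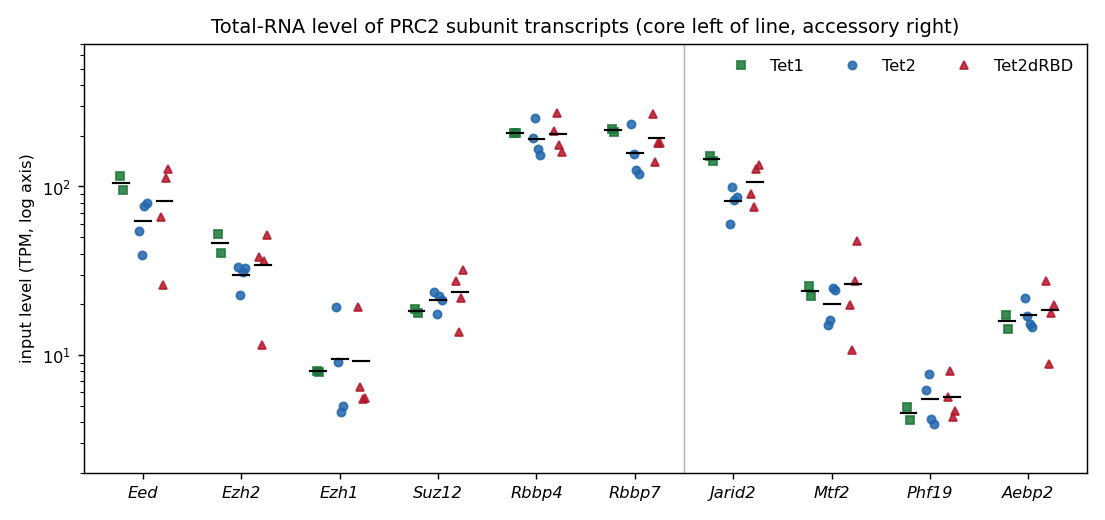
Input level of each PRC2 subunit transcript in TPM on a log axis, with 1 point per input library and a black bar at the mean of each line (Tet1, 2 libraries; Tet2 and Tet2dRBD, that is Tet2ΔRBD, 4 each). Rbbp4 and Rbbp7 sit above 100 TPM in every library and Phf19 below 9 in every library.

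Input levels were compared between lines with edgeR's quasi-likelihood test. None of the 10 members passed between Tet2 and Tet2ΔRBD, where 0% of 13310 genes passed in either direction, nor between Tet1 and Tet2, where 0.233% of genes were higher and 0.173% lower in Tet1. DESeq2 called 0 members in both, where it called 12 of 13310 genes higher and 4 lower in Tet2 than in Tet2ΔRBD. Between Tet1 and Tet2 it called 127 genes higher and 246 lower in Tet1. At an unadjusted p under 0.05 in edgeR the counts were 0 and 1 members, against 2.55% and 9.11% of genes. The 1 member was Jarid2, higher in Tet1 by 0.79 ± 0.26 (log2, SE, adjusted p = 0.312), at 151 and 141 TPM against 59.7, 99.1, 82.9 and 86.0 in Tet2. The 95% intervals stayed wide, for Eed from -1.32 to 0.58 (log2, Tet2 minus Tet2ΔRBD).
Within the shared library set, with 2 inputs a line, 3 members were lower in Tet2 than in Tet2ΔRBD by the same test: Jarid2 by a log2 difference of -0.55, Eed by -0.53 and Rbbp7 by -0.51. None was higher, and of all genes 9.50% were lower and 10.9% higher there. In that set 5 members were higher in Tet1 than in Tet2: Rbbp7 (0.71), Jarid2 (0.68), Ezh1 (0.63), Eed (0.31) and Rbbp4 (0.26). Of all genes 24.5% were higher and as large a share lower, and the inputs of a line in this set are the near-alike libraries described above.

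Recovery with the tagged proteins is described first by the ratio of TPM + 1 in the IP to TPM + 1 in the input of the same number, on the log2 scale. Counting members above their input in every pair of a line gave 7 of 10 in Tet1, 8 of 10 in Tet2 and 7 of 10 in Tet2ΔRBD. Of 8467 expressed genes (mean input of at least 5 TPM), 50.8%, 46.9% and 30.0% met the same rule. No member was below its input in every pair of Tet1 or of Tet2ΔRBD, against 35.1% and 11.5% of expressed genes. Eed, Ezh2, Suz12, Rbbp7, Jarid2 and Aebp2 were above input in all 10 pairs, against 22.4% of expressed genes. The median expressed gene itself lay between -0.01 and 0.35 in the 10 pairs, above 0 in all but Tet2ΔRBD replicate 2, so a ratio slightly above 0 was the usual state of a transcript. Eed, Suz12, Rbbp7, Jarid2 and Aebp2 were above that median in all 10 pairs (14.0% of expressed genes).

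Eed, the reader of the mark, was above its input in every pair. Its level in Tet1 was 192 and 177 TPM in the IPs against 115 and 94.8 in the inputs. In Tet2 it was 89.5, 118, 126 and 126 against 54.5, 39.0, 77.1 and 79.4, and in Tet2ΔRBD 117, 82.7, 188 and 180 against 65.5, 26.1, 112 and 127 (replicates 1 to 4). The groups of IP and input did not overlap in Tet1 or Tet2. They overlapped in Tet2ΔRBD, where each IP was still above its own input. The share of expressed genes whose groups do not overlap was not computed, so this only describes the levels.
The log2 ratios were 0.73 and 0.89 in Tet1, 0.71, 1.57, 0.70 and 0.66 in Tet2, and 0.83, 1.63, 0.75 and 0.51 in Tet2ΔRBD. Replicate 2 was highest in both Tet2 lines. With these ratios Eed ranked at the 95.1, 93.2 and 96.9 percentile of expressed genes in Tet1, Tet2 and Tet2ΔRBD.

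Ezh2, the main methyltransferase of ESCs, was more variable. Its log2 ratios were 0.50 and 0.83 in Tet1, 1.25, 2.81, 0.56 and 0.50 in Tet2, and 1.14, 1.63, 0.60 and 0.00 in Tet2ΔRBD. Behind the highest ratio stood 165 TPM in the IP and 22.6 in the input of Tet2 replicate 2, and behind the lowest 51.7 and 51.6 in Tet2ΔRBD replicate 4. The other IPs of Tet2 held 81.0, 46.5 and 47.0 TPM of Ezh2, all well below that of replicate 2.
Its paralog Ezh1, the weaker methyltransferase, stayed near input in Tet1 (-0.03 and 0.11) and had ratios of 0.40, 1.06, 0.26 and -0.04 in Tet2 and 0.51, 0.41, 0.38 and 0.34 in Tet2ΔRBD. Ezh2 had the higher ratio of the paralogs in every pair except Tet2ΔRBD replicate 4.

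Suz12, the scaffold, was recovered above input in every pair, with another profile over the replicates. Its levels in Tet1 were 37.2 and 34.9 TPM in the IPs against 18.8 and 17.8 in the inputs. In Tet2 they were 64.9, 26.7, 36.5 and 35.3 against 23.7, 17.6, 22.4 and 21.3, and in Tet2ΔRBD 88.0, 15.3, 47.1 and 41.4 against 27.4, 13.7, 21.9 and 31.9. As for Eed, the groups of IP and input did not overlap in Tet1 or Tet2 and overlapped in Tet2ΔRBD, a description without a share of genes beside it.
The log2 ratios were 0.95 and 0.93 in Tet1, 1.42, 0.58, 0.68 and 0.71 in Tet2, and 1.65, 0.14, 1.07 and 0.36 in Tet2ΔRBD. Replicate 1 was highest and replicate 2 lowest in both Tet2 lines, the opposite of Eed, for which replicate 2 was highest. Over the 10 pairs the ratio of Suz12 correlated with that of Eed at r = -0.41 and with that of Mtf2 at r = 0.93, a description in which the points share lines and library sets.

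Rbbp4 and Rbbp7, chaperones that also serve other chromatin complexes, lay on opposite sides of the input in every Tet2 pair, but not in every pair of the other lines. Rbbp4 held 219 and 189 TPM in the Tet1 IPs against 207 and 207 in the inputs. In Tet2 it held 128, 194, 146 and 139 against 194, 255, 167 and 153, and in Tet2ΔRBD 165, 188, 167 and 161 against 214, 271, 176 and 159. Its log2 ratio was 0.08 and -0.13 in Tet1. It was below 0 in every Tet2 pair (-0.60, -0.39, -0.19 and -0.14), which held for 15.9% of expressed genes, and in 3 of 4 Tet2ΔRBD pairs (-0.37, -0.52, -0.08 and 0.01).
Rbbp7 had the narrowest range of all members, from 0.29 to 0.61 over the 10 pairs. Its level divided by that of Rbbp4 was higher in the IP than in the input of every pair, with a median of 1.32 in the IPs (range 1.10 to 2.59) and 1.03 in the inputs (range 0.515 to 1.26). The 2 paralogs thus differed in the same direction in all 10 pairs.

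**Figure D2:**
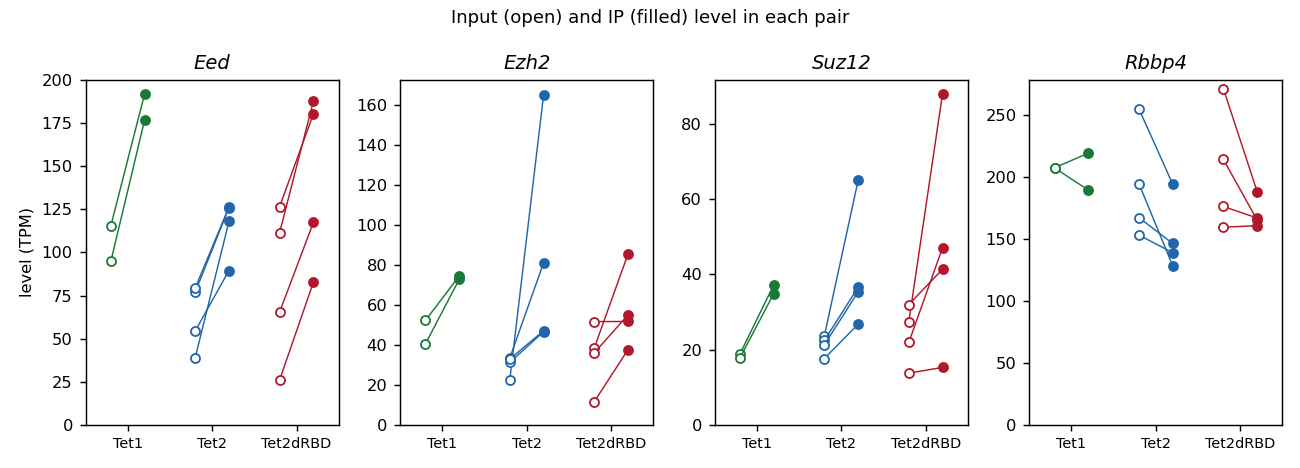
Level in TPM of Eed, Ezh2, Suz12 and Rbbp4 in each pair, with the input as an open circle joined to its IP as a filled circle, by line. Lines rise in all 10 pairs for Eed, Ezh2 and Suz12, by almost nothing in 1 pair of Ezh2, while those of Rbbp4 fall in all 4 Tet2 pairs.

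Among accessory subunits, Mtf2, which binds CpG islands, was the highest in Tet1, with log2 ratios of 0.88 and 0.95. It had 1.09, 0.25, 0.33 and 0.32 in Tet2 and 1.34, 0.07, 0.61 and -0.18 in Tet2ΔRBD, replicate 1 being highest in both as for Suz12. Its relative Phf19 had the lowest level of all members and ratios of both signs, from -0.22 to 0.65, with 8 of 10 pairs above input.
Jarid2, which binds PRC2 and helps to recruit it, was above input in all pairs, at 0.11 and 0.19 in Tet1, 0.51, 1.22, 0.34 and 0.31 in Tet2 and 0.41, 0.49, 0.60 and 0.50 in Tet2ΔRBD. Its ratio followed that of Ezh1 most closely (r = 0.93 over 10 pairs, as a description).
Aebp2, a DNA-binding cofactor, had ratios of 0.17 to 1.04, but these depended on the estimated transcript length. It has 3 transcripts in the tables, and the length assigned to the gene was 3022 to 4195 bases in the IPs and 3921 to 5622 in the inputs, shorter in the IP of every pair. As a share of each library's counts, without length, its log2 ratio was -0.02 and 0.20 in Tet1, -0.06, 0.07, -0.03 and -0.06 in Tet2 and 0.37, 0.58, 0.09 and -0.17 in Tet2ΔRBD. In Tet2 the counts of Aebp2 in the IP were thus close to those of the input in all 4 pairs, while its TPM was above.

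**Figure D3:**
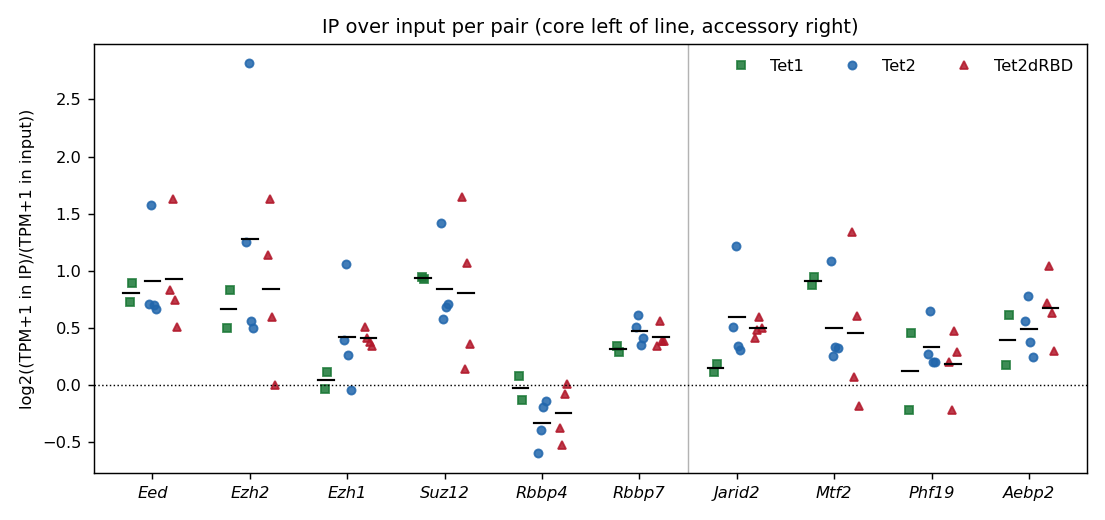
log2 ratio of TPM + 1 in the IP to TPM + 1 in the input of the same number for each member, with 1 point per pair, a black bar at the mean of each line and a dotted line at equal levels. Eed, Suz12, Rbbp7, Jarid2 and Aebp2 lie above 0.1 in all 10 pairs, Rbbp4 lies at or below 0.08, and the highest point is Ezh2 in Tet2 at 2.81.

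On the TPM scale, the mean ratios of core and accessory subunits lay close together. The mean ratio over the 6 core members minus that over the 4 accessory members was 0.06 ± 0.18 (SD, n = 2 pairs) in Tet1, 0.12 ± 0.13 (n = 4) in Tet2 and 0.07 ± 0.15 (n = 4) in Tet2ΔRBD, each smaller than its SD over pairs. By pair it was 0.19 and -0.06 in Tet1, 0.01, 0.32, 0.08 and 0.08 in Tet2, and 0.02, 0.30, -0.06 and 0.04 in Tet2ΔRBD. The largest values were those of replicate 2. The accessory mean includes Aebp2, whose TPM ratio depended on the estimated length. For the effects fitted on counts, described below, medians were taken instead of means, so the gaps on the 2 scales cannot be set against each other. These medians were 0.35, 0.36 and 0.37 for the core and 0.02, 0.16 and 0.15 for the accessory subunits in Tet1, Tet2 and Tet2ΔRBD.
The core was split within itself. Eed, Ezh2 and Suz12 alone averaged 0.81, 1.01 and 0.86 in Tet1, Tet2 and Tet2ΔRBD, against accessory means of 0.39, 0.48 and 0.45, a difference of 0.41 ± 0.11, 0.54 ± 0.28 and 0.40 ± 0.32. No test was made of these averages over chosen genes.

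**Figure D4:**
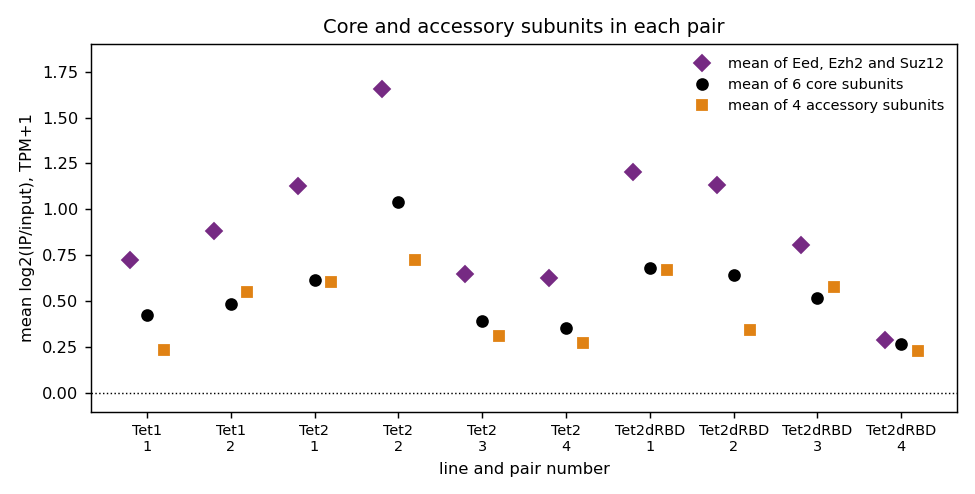
Mean log2 ratio of IP to input in each pair over Eed, Ezh2 and Suz12 (diamonds), over all 6 core subunits (circles) and over the 4 accessory subunits (squares). Circles and squares lie within 0.32 of each other in every pair, and diamonds lie above both in every pair.

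The IP effect was then tested on counts with edgeR's quasi-likelihood test, with TMM scaling and each pair as a block, in a fit to 13710 genes. This scale sets the median gene near 0 (between -0.04 and 0.00 in the 3 lines), whereas the log2(TPM + 1) scale sets it at 0.08, 0.23 and 0.19, so effects are smaller here. With Tet2, Eed was higher in the IP by 0.60 ± 0.20 (log2, SE, 1.52-fold, adjusted p = 0.0394) and Rbbp4 lower, with a log2 effect of -0.65 ± 0.14 (0.638-fold, adjusted p = 0.00575). That is 1 of 10 members higher, where 14.6% of all genes were, and 1 of 10 lower, where 18.5% were in this fit. DESeq2 called 3 members higher and 1 lower, where it called 17.8% and 18.0% of genes, and limma on log2(TPM + 1) called 7 higher and 1 lower, where it called 35.0% and 8.12%. Ezh2 (0.97 ± 0.35, adjusted p = 0.0531) and Suz12 (0.56 ± 0.20, adjusted p = 0.0526) lay just outside the threshold, and 5 members had an unadjusted p under 0.05, against 45.0% of genes.
With Tet2ΔRBD the same 2 members passed: Eed by 0.66 ± 0.20 (1.58-fold, adjusted p = 0.0434) and Rbbp4 by -0.52 ± 0.14 (0.698-fold, adjusted p = 0.0257), where 7.40% of genes were higher and 12.1% lower. Suz12 followed with 0.56 ± 0.20 (adjusted p = 0.0757), and Ezh2 had 0.59 ± 0.35 (adjusted p = 0.244). At an unadjusted p under 0.05 there were 3 members, against 35.4% of genes. DESeq2 called 2 members higher and 1 lower (12.8% and 11.1% of genes), and limma on log2(TPM + 1) called 5 higher and 0 lower (23.5% and 4.59% of genes).
With Tet1, which has 2 pairs, 0 members passed, where 2.72% of genes were higher and 3.18% lower. At an unadjusted p under 0.05 there were 3, against 23.5% of genes, namely Mtf2 (0.86 ± 0.29, adjusted p = 0.109), Suz12 (0.84 ± 0.29, adjusted p = 0.107) and Eed (0.67 ± 0.28, adjusted p = 0.183). DESeq2 called Mtf2 and Suz12 higher, where it called 6.13% of genes higher and 5.38% lower.

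The other effects did not pass the test. Ezh1 had -0.10, 0.14 and 0.18 in Tet1, Tet2 and Tet2ΔRBD, and Mtf2 had 0.26 in Tet2 and 0.25 in Tet2ΔRBD. Rbbp7 had 0.17, 0.16 and 0.15 in Tet1, Tet2 and Tet2ΔRBD, Jarid2 0.00, 0.28 and 0.23, and Phf19 -0.01, 0.07 and -0.05. Aebp2 had 0.04, -0.09 and 0.08, with a 95% interval of -0.36 to 0.18 in Tet2. The median effect over the members was 0.10, 0.21 and 0.21, with 0.35, 0.36 and 0.37 for the core and 0.02, 0.16 and 0.15 for the accessory subunits, beside the median of all genes given above.

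The calls rested on few pairs. In Tet2, Eed did not pass without any one of replicates 1 to 4 (adjusted p of 0.0572 to 0.128): its effect was 0.44 without replicate 2 and 0.74, 0.65 and 0.64 without replicates 1, 3 and 4. There Rbbp4 did not pass without replicate 1 (adjusted p = 0.0517) but passed without each of the others. In Tet2ΔRBD both passed only without replicate 4 (adjusted p of 0.031 for Eed and 0.0303 for Rbbp4), and without replicate 2 the effect of Eed was 0.36, against 0.66 with all pairs.
Suz12 passed in both Tet2 lines without replicate 2, at 0.72 in Tet2 (adjusted p = 0.0389) and 0.73 in Tet2ΔRBD (adjusted p = 0.0421). Without replicate 1 it had 0.43 (adjusted p = 0.159) and 0.32 (adjusted p = 0.297). Ezh2 passed in Tet2 without replicate 3 (adjusted p = 0.0477), and without replicate 2 it had 0.53 in Tet2 and 0.25 in Tet2ΔRBD. In Tet1, leaving out either pair left 1 pair, so only effects are given. Eed had 0.69 and Suz12 0.77 without replicate 1. Without replicate 2 Eed had 0.64 and Suz12 0.89.
Within the shared library set, with 2 pairs a line, more members passed, as did more of all genes (19.3% higher and 26.3% lower in Tet1, 24.2% and 24.4% in Tet2, 23.6% and 24.3% in Tet2ΔRBD). There Eed, Ezh2, Suz12 and Mtf2 were higher in the IP of Tet1 (0.63, 0.50, 0.80 and 0.82). Eed, Ezh2, Suz12 and Rbbp7 were higher in that of Tet2 (0.48, 0.34, 0.52 and 0.18), and Eed, Jarid2 and Suz12 in that of Tet2ΔRBD (0.35, 0.28 and 0.47). Rbbp4 was lower in both Tet2 lines (-0.37 and -0.31). Eed and Suz12 thus passed in all 3 lines in that set. The spread behind these tests is that between the near-alike replicates of the set. With replicates 3 and 4 merged into 1 pair, beside replicates 1 and 2, Rbbp4 in Tet2 was the 1 member that passed (-0.71, adjusted p = 0.0188). Of 13710 genes, the merged fit called 1434 higher and 1696 lower in Tet2. It called 391 and 549 in Tet2ΔRBD and 162 and 127 in Tet1.

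**Figure D5:**
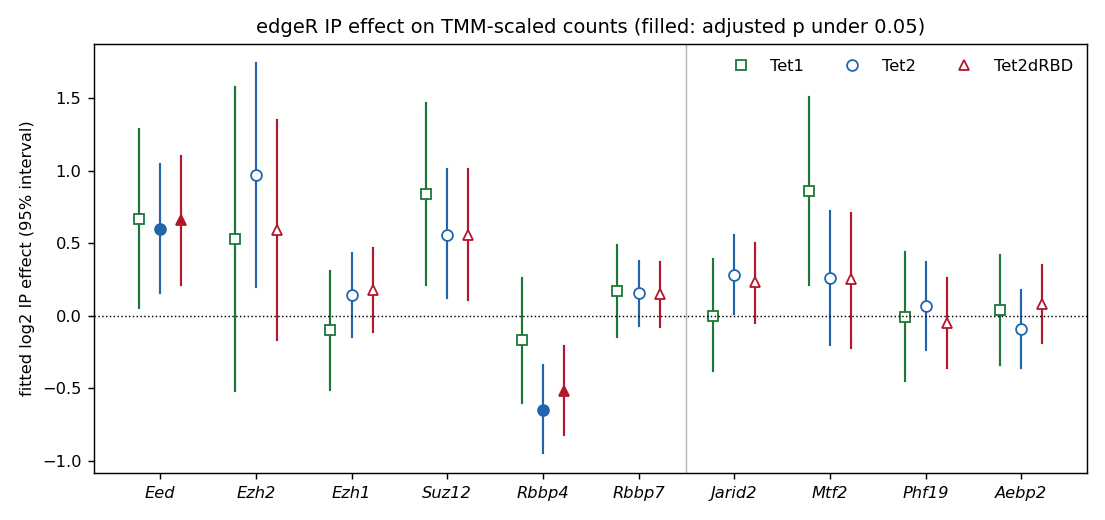
Fitted log2 effect of the IP on TMM-scaled counts for each member in the 3 lines, with 95% intervals from the pooled spread. Filled symbols mark an adjusted p under 0.05, reached by Eed and Rbbp4 in Tet2 and Tet2dRBD (that is Tet2ΔRBD) and by no member in Tet1.

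Whether the RNA-binding domain of Tet2 mattered for these transcripts was asked with the difference between the 2 IP effects. For 0 of the 10 members did this difference pass in edgeR, where 0.0219% of all genes were higher and 0% lower in Tet2. At an unadjusted p under 0.05 there were 0 members, against 3.03% of genes. DESeq2 called 0 members, where it called 28 of 13710 genes higher and 0 lower. Limma on log2(TPM + 1) called 0 members, where it called 4 genes higher and 0 lower. The largest difference was that of Ezh2, 0.38 with a 95% interval of -0.69 to 1.46. For Eed it was -0.05 (-0.68 to 0.57), for Suz12 0.00 (-0.63 to 0.63) and for Rbbp4 -0.13 (-0.56 to 0.30). These intervals leave room for differences of about the size of the IP effects themselves.
For the difference between the IP effects of Tet1 and Tet2, 0 members passed in edgeR, where 0% of genes passed in either direction. At an unadjusted p under 0.05 there were 0 members, against 3.77% of genes. DESeq2 called 0 members, where it called 4 of 13710 genes higher and 9 lower in Tet1. The largest differences were those of Mtf2 (0.59, interval -0.20 to 1.39), Rbbp4 (0.48, -0.05 to 1.00) and Ezh2 (-0.44, -1.74 to 0.85). Both comparisons use the Tet2 libraries.

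Other genes of the pathway were taken from lists of further subunits, demethylases and target genes. Of 5 further PRC2 subunits, 4 were tested, and 0, 1 and 1 passed in Tet1, Tet2 and Tet2ΔRBD. Epop (E130012A19Rik in the tables), a subunit of the MTF2-containing form that is abundant in ESCs, was higher in the IP of Tet2 (0.65 ± 0.10, adjusted p = 0.00114) and Tet2ΔRBD (0.52 ± 0.10, adjusted p = 0.00713), and had 0.48 in Tet1 (adjusted p = 0.072). Its log2 TPM ratio was above input in all 10 pairs (0.41 to 1.09). Phf1, a relative of Mtf2, did not pass, with -0.38, -0.18 and -0.49 in Tet1, Tet2 and Tet2ΔRBD. Neither did Ezhip (AU022751), with -0.43, -0.50 and -0.52, nor Lcorl, with 1.46, 0.92 and 1.22. The inputs held Lcorl at 0.03 to 0.83 TPM.
Kdm6a, which removes methyl groups from the same lysine that PRC2 methylates, had larger fitted effects than the 10 PRC2 members in each line, a difference that was not tested. They were 1.91 ± 0.44 in Tet1 (adjusted p = 0.0347), 1.37 ± 0.31 in Tet2 (adjusted p = 0.00708) and 1.11 ± 0.31 in Tet2ΔRBD (adjusted p = 0.0319). The inputs held Kdm6a at 0.79 to 3.84 TPM, under the 5 TPM set for an expressed gene. Its log2 TPM ratio ranged from 0.33 to 2.12 over the pairs. Kdm6b, the related demethylase, passed in none of the 3 lines (-0.19, 0.25 and -0.01).
Of 10 developmental target genes of PRC2, 8 were tested. Gata4 was lower in the IP of Tet2 (-0.36) and Tet2ΔRBD (-0.46), as was Gata6 (-0.44 and -0.58), and Hoxd13, at 0.33 to 1.94 TPM in the 20 libraries, was higher in Tet2ΔRBD (0.69). None passed in Tet1.
The mRNA of Tet2 was higher in the IP of Tet2 (0.56 ± 0.19, adjusted p = 0.0428). It had similar effects that did not pass in Tet1 (0.57 ± 0.27, adjusted p = 0.23) and Tet2ΔRBD (0.43 ± 0.19, adjusted p = 0.141). Tet1 mRNA was higher in the IP of Tet2ΔRBD (0.76 ± 0.20, adjusted p = 0.0242). It had 0.52 ± 0.20 in Tet2 (adjusted p = 0.0664) and 0.47 ± 0.28 in Tet1 (adjusted p = 0.343). An mRNA level does not check the tag or the deleted domain.

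The genes whose ratio over the 10 pairs was most like that of a core member, by Pearson's r among 8467 expressed genes, were 1500031L02Rik (0.99), Xrcc5 (0.99) and Zcrb1 (0.99) for Eed, St13 (0.99), Yy1 (0.99) and Taf5 (0.99) for Ezh2, and Sltm (0.98), Dnajc21 (0.98) and Tmem57 (0.98) for Suz12. The points share lines and library sets.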

How the data were processed

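RNA immunoprecipitation (IP) and input libraries of tagged mouse ESCs were analysed as 10 pairs. The authors filtered rRNA and tRNA reads (Bowtie2), trimmed reads (Trimmomatic) and quantified genes with RSEM on mm9 and RefSeq transcripts. The versions are not given in the sources used here. The deposited tables hold the authors' estimated counts, TPM to which the authors had added 1, FPKM (not used) and transcript lengths. The members and lists were chosen with earlier results of these data known. All 10 members are named, with genes of the other lists that passed the test in any line. Also named are Phf1, Ezhip, Lcorl, Kdm6b, the Tet genes and the 3 genes most like Eed, Ezh2 and Suz12.

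Expected counts were rounded, and genes with at least 1 CPM in at least 2 libraries were fitted with edgeR 4.0.16 (R 4.3.3; TMM, quasi-likelihood, Benjamini-Hochberg over all genes, adjusted p under 0.05). The IP fit used 20 libraries with the pair as a block and an effect per line. The input fit used line only. SEs are the effect divided by the square root of F. DESeq2 1.42.0 and limma 3.58.1 were alternatives. Scripts were tested on simulated data. Same-numbered IP and input deviated together (mean r of 0.24, 0.78 and 0.75 in Tet1, Tet2 and Tet2ΔRBD), and the study's supplementary tables set them side by side by number. Libraries of different numbers reached r of 0.81 in Tet2 and 0.73 in Tet2ΔRBD, above the lowest same-numbered values (0.64 and 0.61). All replicates of a group differed beyond sampling noise (chi-square per gene of 2.69 or more), those of 1 library set by far less than those of different sets.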

Additional observations from a re-analysis of the deposited data

Results flagged for a closer look

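Of 40 groups of 4 values tested (each member's log2 IP ratio and input level in Tet2 and Tet2ΔRBD), 5 held 1 library far from the other 3. A rate of 1 in 20 assumes independent values. It cannot be used here, because replicates 3 and 4 are near-alike and the groups share the same libraries. The Eed ratio in Tet2 replicate 2 was 1.57, against 0.66 to 0.71 in the others, and the Phf19 ratio of the same pair was 0.65 against 0.20 to 0.27. The Suz12 ratio in Tet2 replicate 1 was 1.42 against 0.58 to 0.71, and the Mtf2 ratio of that pair 1.09 against 0.25 to 0.33. The Ezh1 input level in Tet2ΔRBD replicate 1 was 19.3 TPM, against 5.51 to 6.44 in the others. All 5 lie in library sets that hold 1 pair of each Tet2 line. Values of replicates 3 and 4 tend to lie close together, so this search flags replicates 1 and 2 more readily.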

How the results depend on the processing

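Alternatives were planned for each result, and 1 was chosen after seeing the data (leaving out the replicate 2 pairs of both Tet2 lines). The number of members called in Tet1 (0) became 2 with DESeq2, 4 in the shared library set and 2 without the replicate 2 pairs. Without those pairs 1189 of 13710 genes were higher and 1659 lower in Tet1. In Tet2 (2) it became 0 with no replicate block, 4 with DESeq2, 8 with limma on log2(TPM + 1) or log2(TPM + 0.1), 5 in the shared library set and 1 with replicates 3 and 4 merged. In Tet2ΔRBD (2) it became 0 with no replicate block, 5 with either limma fit, 4 in the shared set and 0 with replicates 3 and 4 merged. With those replicates merged, 1434 of 13710 genes were higher and 1696 lower in Tet2, and 391 and 549 in Tet2ΔRBD. Leaving out 1 pair gave 0 to 2 in Tet2 and in Tet2ΔRBD. Of 13710 genes, those fits called 1223 to 1567 higher and 1463 to 2131 lower in Tet2. In Tet2ΔRBD they called 205 to 1227 higher and 585 to 1849 lower. Input calls (0) became 3 for Tet2 against Tet2ΔRBD and 5 for Tet1 against Tet2 in the shared set. The replicate block between lines left 0 members called for the Tet2 minus Tet2ΔRBD difference in the IP effect and in the inputs. For the IP effect 0 of 13710 genes were called in either direction. For the inputs 5 of 13310 were higher and 0 lower in Tet2. Requiring the IP to be at least 1.5 times the input lowered the members above input from 7, 8 and 7 to 3, 1 and 0 in Tet1, Tet2 and Tet2ΔRBD. Leaving out 1 pair gave 8 to 9, 8 to 9 and 7 to 8. The share of expressed genes under either setting was not computed, so these counts have no background to be read against. Core minus accessory became 0.41, 0.54 and 0.40 with Eed, Ezh2 and Suz12 as the core, and ranged from -0.064 to 0.19, 0.057 to 0.16 and -0.0018 to 0.12 with 1 pair left out.

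Of 340 values of the members' IP effects under an alternative, 253 kept their direction and their side of the threshold, 20 lost the call, 40 gained one and 27 changed sign. The sign changes with Tet1 were Ezh1 (0.041 and 0.046 with limma), Jarid2 (-0.031 in the shared set, -0.0040 with merged replicates, -0.019 to 0.018 with 1 pair left out), Phf19 (0.014 with no replicate block, 0.0018 with no filter, 0.12 and 0.14 with limma, -0.36 to 0.34 with 1 pair left out) and Aebp2 (-0.038 to 0.11 with 1 pair left out). With Tet2 they were Ezh1 (-0.072 in the shared set, -0.027 to 0.26 with 1 pair left out, -0.036 without both replicate 2 pairs) and Aebp2 (0.49 and 0.51 with limma, both called). With Tet2ΔRBD they were Mtf2 (-0.025 in the shared set, -0.012 to 0.47 with 1 pair left out), Phf19 (0.0020 with DESeq2, 0.19 and 0.22 with limma, 0.18 in the shared set, 0.045 without replicate 2 and 0.0445 without both replicate 2 pairs) and Aebp2 (-0.15 in the shared set, -0.060 to 0.20 with 1 pair left out, -0.0595 without both replicate 2 pairs). Eed, Ezh2, Suz12, Rbbp4 and Rbbp7 kept their sign in all 3 lines under every alternative run. The cause was not tested.

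Over all genes, the calls with Tet2 split 2007 higher to 2533 lower on TMM-scaled counts and 4801 to 1113 with limma on log2(TPM + 1), with Tet2ΔRBD 1014 to 1660 and 3224 to 629, and with Tet1 373 to 436 and 492 to 144. With no replicate block they were 121 and 254 for Tet2, 5 and 41 for Tet2ΔRBD and 0 and 0 for Tet1. The lowest count behind a member was 244, and Tet1 had 2 pairs; what limits the calls was not tested.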
